A study of Mus musculus with 7 samples.

Results

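Transcripts of glutathione, NRF2 and antioxidant genes were measured in Tim4+ resident macrophages of the mouse peritoneal cavity. The set holds the protein-coding rows of the count table named as glutathione S-transferases (Gst classes alpha, mu, pi, theta, omega, kappa and zeta), Mgst1 to Mgst3, Prdx1 to Prdx6 and Gpx1 to Gpx8, together with 20 named genes of glutathione synthesis, NRF2 control, thioredoxin, superoxide and NADPH metabolism. This rule used names and no measured value, but the set was chosen with earlier results of these data known. The rule found 60 of the 57010 genes of the table. Of these, 46 had enough reads to be tested, 8 had between 1 and 46 reads in all libraries together, and 6 had no read.

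Poly-A RNA came from C57BL/6 mice, 3 libraries from control animals in steady state and 4 from animals taken 12 days after injection of m204 MTO, a term that the labels leave unexplained. The title of the series refers to colorectal cancer in the peritoneum. No allele, transgene, sex or age is given for either group, and the protocol calls the RNA samples biological replicates without saying how many animals each held. All cells were sorted alive by CD11b, MHC class II and Tim4.

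Cells keep hydrogen peroxide and lipid peroxides low in part with enzymes that draw their electrons from glutathione or thioredoxin, both kept reduced by NADPH. The transcription factor NRF2 (gene Nfe2l2) is held in check by KEAP1 and, when released, binds antioxidant response elements in genes of this system. In macrophages the same enzymes limit damage from the oxidants that the cells make themselves. Glutathione S-transferases couple glutathione to reactive compounds and are best known from liver.

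Library totals ran from 32077050 to 38586694 counts, and the detection floor of 3 counts was 0.0754 to 0.0958 CPM (read counts scaled to library size with TMM factors). Intervals and floors of this kind cover counting error only. Across genes, log2 CPM correlated at 0.988 to 0.990 between steady-state libraries and at 0.968 to 0.985 between day 12 libraries. Day 12 replicate 2 stood nearest to steady state (0.957 to 0.960, against 0.931 to 0.938 for the other day 12 libraries). The 8 macrophage markers (among them Adgre1, Csf1r, Itgam and Timd4) summed to 18948 to 20584 CPM in steady state and 20479 to 21700.0 CPM at day 12, with 3 of 8 higher (Adgre1, Itgam, Mertk) and 2 lower (Csf1r and Timd4, the gene of the sorting marker Tim4). Erythroid markers, of interest because red cells are rich in Cat, Prdx2 and Gpx1, all lay below the filter for testing and summed to 0.364 to 0.623 CPM in steady state and 0.106 to 0.377 CPM at day 12, with Hba-a2 and Slc4a1 without a read. Intestinal epithelial markers, of interest because Gpx2 is a gut epithelial gene, summed to 0.616 to 0.958 and 2.7 to 3.63 CPM, with 1 of 8 called (Cdh1, higher) and Krt20 and Lgr5 at 0 throughout. B cell markers rose in 5 of 8 and summed to 6.75 to 10.4 and 20.4 to 44.3 CPM, and neutrophil markers summed to 432 to 448 and 109.9 to 199 CPM, nearly all of it Csf3r, with Ly6g and Mpo at 0. Csf3r was called lower (log2 fold change -1.46), whereas S100a8 (means 0.775 and 1.37 CPM) and Elane (0.457 and 0.646 CPM) were higher and not called. S100a9, Retnlg and Cxcr2 had no read in steady state and 38, 13 and 5 reads at day 12. Monocyte markers, 1 of 4 higher (Plac8) and 1 lower (Ccr2), summed to 45.2 to 48.7 and 22.9 to 178 CPM, and dendritic cell markers, with 0 of 6 called and Siglech at 0, to 29.6 to 54.7 and 65.0 to 379 CPM. Most of the dendritic cell sum was Cd209a, at 24.4 to 48.6 and 59.3 to 373 CPM. Zbtb46 was level (log2 fold change -0.02), and Flt3, Xcr1 and Clec9a had at most 0.224 CPM. T and NK cell markers (1 of 8 higher, Lck) summed to 1.43 to 2.01 and 1.14 to 4.62 CPM, mast cell and eosinophil markers (1 of 8 higher, Siglecf) to 1.72 to 1.85 and 1.47 to 2.79 CPM, and mesothelial and stromal markers (1 of 8 higher, Col1a2, with Msln at 0) to at most 0.0639 and 1.45 CPM. The part of other cell types in the values that follow was not tested beyond these sums. In bulk RNA, fewer cells of a type and less RNA per cell cannot be told apart.

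The comparison asked how expression 12 days after MTO injection differed from steady state. Antioxidant genes changed in both directions. Of the 46 tested, 11 rose and 10 fell by edgeR's quasi-likelihood test at an adjusted p of 0.05, which is 45.7% of them, where 20.3% of all 15981 genes tested were called. The shares were 23.9% higher and 21.7% lower among these genes, against 10.1% and 10.2% among all genes. The set was chosen with earlier results of these data known, and all genes were not matched to it by level. Risers were the thioredoxin gene Txn1, the malic enzyme gene Me1, Gsto1, Sod2, Srxn1, Prdx2, Prdx3, Prdx5, Tkt, Gstp1 and Gstp2. Fallers were Gstm1, Gstt1, Gsta4, Mgst1, Prdx1, Prdx6, Cat, Sod1, Gpx3 and Osgin1. Of these, Gstt1 and Gsta4 passed the filter on low counts through steady state alone, the group where they were high. Their falls, counted here and below, are thus no separate support for a decrease. Nfe2l2, Keap1 and the genes of glutathione synthesis were not called. The median log2 fold change was 0.15, beside 0.003 over all genes tested, and the values ran from -3.72 (Gstt1) to 2.48 (Me1). Groups did not overlap in 27 of the 46, 14 higher and 13 lower at day 12, where 35.0% of all genes tested did not overlap. In a test against a 1.5-fold change 6 passed (Txn1, Me1 and Gsto1 higher, Gstm1, Gstt1 and Osgin1 lower), beside 7.04% of all genes. Leaving out a steady-state library lowered the counts: 6 rose and 6 fell when replicate 1 was dropped, 8 and 6 when it was replicate 2, and 6 and 7 when it was replicate 3. All genes gave 857 to 2188 rises and 904 to 2411 falls with 1 library of either group left out.

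**Figure D1:**
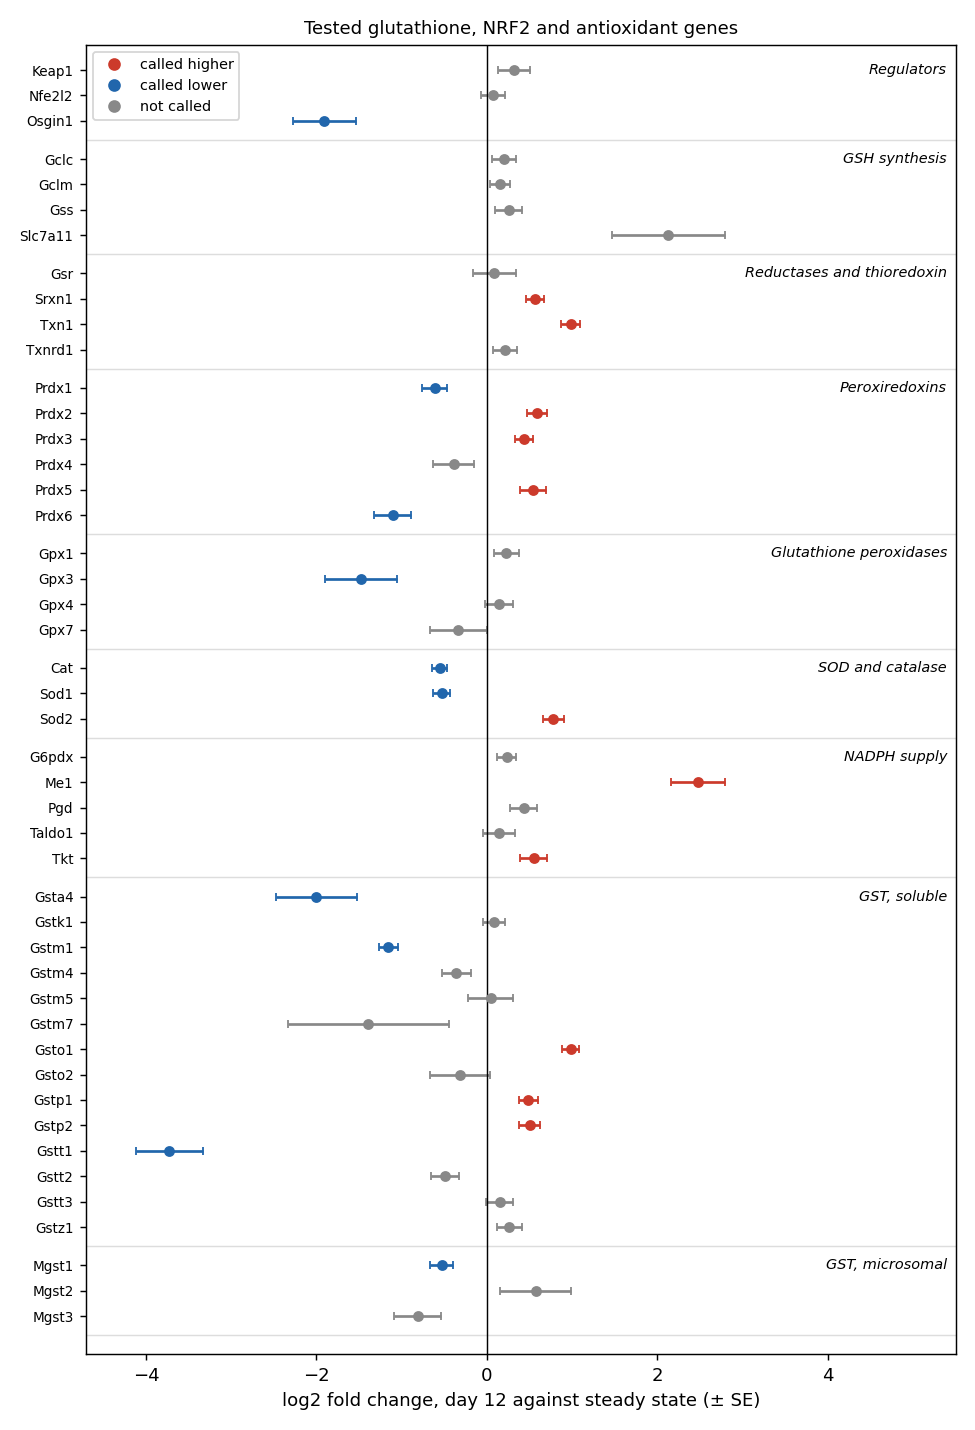
Log2 fold change of each of the 46 tested genes at day 12 against steady state, with its standard error, grouped by role. Red points were called higher, blue points lower and grey points not called; the 11 red and 10 blue points lie on both sides of 0 within the peroxiredoxins, the superoxide dismutases and the transferases.

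Levels were compared between genes per kilobase of exon. Gpx1, the main cytosolic peroxidase that uses glutathione, was the most abundant in both groups, with 627 CPM per kilobase in steady state and 734 at day 12. Txn1 followed (184 and 365 CPM per kilobase), then Prdx5 (139 and 202) and the pentose phosphate enzyme gene Taldo1 (87.3 and 96.2). Below these 4 the order differed. Mgst1, Cat and Prdx1 ranked 5, 6 and 7 in steady state, whereas G6pdx, Gsr and Gsto1 held these places at day 12. The lowest of the tested genes was Slc7a11 in steady state (0.0104 CPM per kilobase, and 0.0475 at day 12) and Gstt1 at day 12 (0.0393 CPM per kilobase). Summed over all 60 genes the level was 3946 ± 165 CPM (SD, n = 3) in steady state and 4571 ± 611 CPM (SD, n = 4) at day 12, with day 12 replicate 4 the highest at 5455 CPM.

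**Figure D2:**
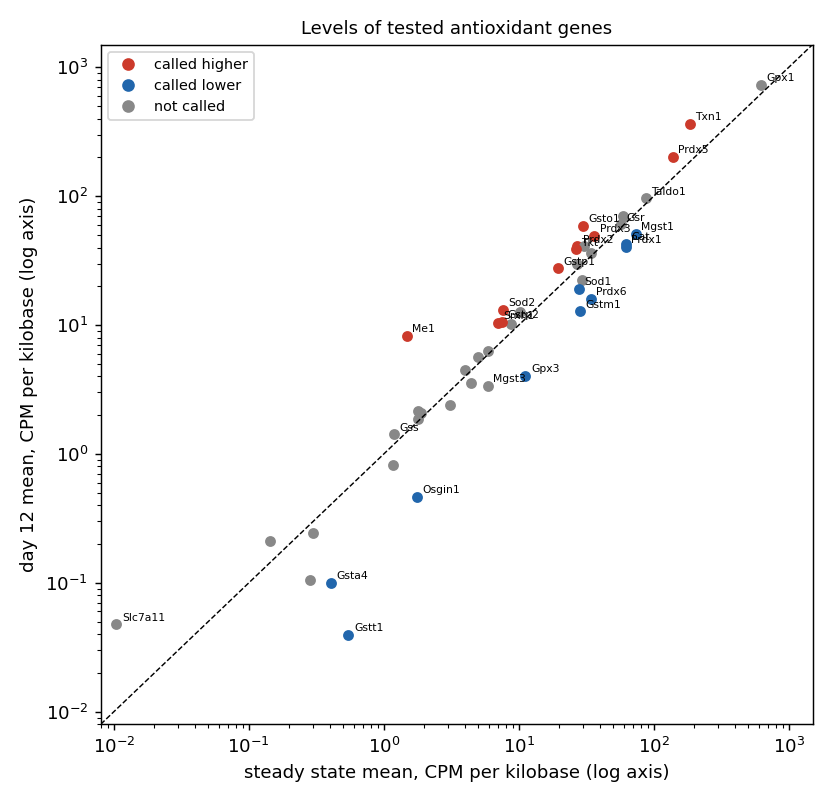
Mean level of each tested gene in steady state (horizontal) and at day 12 (vertical), in CPM per kilobase of exon on log axes, with the dashed line marking equal levels. Gpx1, Txn1 and Prdx5 lie at the top in both groups, and Me1 (above the line) and Gstt1 (below it) lie farthest from the line among the called genes.

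The regulators of the pathway came first. Nfe2l2 (ENSMUSG00000015839, chromosome 2, 75505857 to 75534985 in GRCm39) stood at 125, 124 and 140.1 CPM in steady-state replicates 1, 2 and 3 and at 141, 116, 168 and 122 CPM in day 12 replicates 1 to 4, the order used throughout. The groups overlapped, and the change was not called (log2 fold change 0.08, SE 0.14, adjusted p = 0.747). Without day 12 replicate 3 its sign turned (-0.036). Keap1, which marks NRF2 for degradation (ENSMUSG00000003308, chromosome 9, 21141026 to 21150657), had 48.2, 45.5 and 49.4 CPM and 50.3, 59.5, 45.7 and 82.0 CPM, with day 12 replicate 4 above all others (log2 fold change 0.32, SE 0.19, adjusted p = 0.269). Osgin1, a growth inhibitor induced by oxidative stress and a known NRF2 target (ENSMUSG00000074063, chromosome 8, 120160863 to 120172995), went from 4.30, 5.29 and 4.44 CPM to 0.768, 2.16, 0.684 and 1.36 CPM. All 4 day 12 values lay below all 3 of steady state, and Osgin1 was 3.75-fold lower (log2 fold change -1.91, SE 0.37, adjusted p = 0.00705). Nqo1, a quinone reductase used widely as a readout of NRF2, was near the floor in every library, with 6, 7 and 7 reads in steady state and 3, 9, 2 and 6 at day 12, and it was not tested.

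Short stretches of promoters are shown because NRF2 and AP-1 type factors are known to bind the sequences they hold. The windows, from 250 bases before to 50 after a start site, come from RefSeq in the build GRCm38.p6, whereas gene coordinates in the text are those of the count table in GRCm39. Of the 60 genes 54 had a window. The core of the antioxidant response element, TGACNNNGC on either strand, was in the windows of 12 of the 41 tested genes that had one. It was present in 2 of 11 that rose, 3 of 8 that fell and 7 of 22 not called, beside 13.99% of all 27025 genes with a window. The element TGACTCA, which can overlap the first, was found in 4 of 11 that rose, 2 of 8 that fell and 2 of 22 not called, beside 5.95% of all genes. A match describes letters in this window and is not a measured site. In the examples the match is in capitals, on the gene's strand and 5′ to 3′:
Prdx1 (fell), chr4:116685446-116685494, plus strand, match beginning 133 bases before the start site: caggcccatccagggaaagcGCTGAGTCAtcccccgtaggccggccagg
Me1 (rose), chr9:86695902-86695930, minus strand, 6 bases before the start site: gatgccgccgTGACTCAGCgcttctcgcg
Txnrd1 (not called), chr10:82859094-82859142, plus strand, 92 bases before the start site: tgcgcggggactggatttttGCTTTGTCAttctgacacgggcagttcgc
Gclm (not called), chr3:122245403-122245451, plus strand, 134 bases before the start site: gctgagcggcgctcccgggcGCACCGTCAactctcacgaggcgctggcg
Gstp1 (rose), chr19:4037960-4038006, minus strand, 74 bases before the start site: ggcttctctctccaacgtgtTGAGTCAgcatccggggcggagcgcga
Gstp2 (rose), chr19:4042284-4042330, minus strand, 89 bases before the start site: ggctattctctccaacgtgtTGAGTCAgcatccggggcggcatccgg
Prdx1 and Me1 thus both held TGACTCAGC, the combined form, read on the minus and plus strand of the gene, and moved in opposite directions. The last 2 lines show how close in sequence the neighbours Gstp1 and Gstp2 are.

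None of the 4 genes of glutathione synthesis and cystine supply passed the test. Gclc, the catalytic subunit of the rate-limiting glutamate-cysteine ligase (ENSMUSG00000032350, chromosome 9, 77661817 to 77701767), had 18.6, 19.5 and 18.1 CPM in steady state and 25.2, 21.9, 22.1 and 16.8 CPM at day 12. Replicate 4 was the lowest library of all, and the other day 12 libraries lay above steady state (log2 fold change 0.20, SE 0.14, adjusted p = 0.365). Without that replicate Gclc was called higher (adjusted p = 0.0358). Its modifier subunit gene Gclm (ENSMUSG00000028124, chromosome 3, 122039206 to 122064381) had 24.2, 25.9 and 25.5 CPM and 26.3, 33.0, 26.0 and 27.0 CPM, without overlap but by a small step (log2 fold change 0.16, SE 0.12, adjusted p = 0.386). A pseudogene, Gm6061, lies within Gclm on the same strand and held 18271 reads, against 6760 for Gclm. Gss, which completes the tripeptide, went from a mean of 7.03 ± 0.991 (SD, n = 3) to 8.39 ± 0.891 CPM (SD, n = 4) and was not called (log2 fold change 0.26, adjusted p = 0.297). Acss2 overlaps Gss on the other strand and held 2695 reads, against 1960 for Gss (log2 fold change of Acss2 0.37, not called). Slc7a11, the cystine importer that feeds the pathway, was close to the floor, with 5, 8 and 2 reads in steady state and 27, 20, 8 and 42 at day 12. In CPM that was 0.148, 0.224 and 0.0639 and 0.715, 0.503, 0.210 and 1.22. All day 12 values but that of replicate 3 exceeded all of steady state, and the change fell just short of the threshold (log2 fold change 2.13, SE 0.66, adjusted p = 0.0503). It passed in 6 of the 12 alternatives in which it could be tested, among them without day 12 replicate 3 (adjusted p = 0.0166) and with DESeq2 (adjusted p = 0.0187). Slc7a11 passed the filter on low counts through day 12 alone, the group where it was high. Its place in the test depended on that group, so these passes are no separate support for a rise.

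Thioredoxin rose while its reductase was not called. Txn1, the cytosolic thioredoxin that reduces peroxiredoxins (ENSMUSG00000028367, chromosome 4, 57943373 to 57956411), stood at 186, 195 and 201 CPM and at 348, 392, 362 and 431 CPM. Every day 12 library lay far above every steady-state one, and Txn1 was 1.98-fold higher (log2 fold change 0.98, SE 0.11, adjusted p = 0.000519). Srxn1, the sulfiredoxin that repairs over-oxidised peroxiredoxins (ENSMUSG00000032802, chromosome 2, 151947436 to 151953296), had 20.4, 19.4 and 19.8 CPM and 27.7, 29.3, 28.5 and 32.2 CPM. These values were tight within each group and did not overlap (1.48-fold, log2 fold change 0.56, SE 0.10, adjusted p = 0.00470). Txnrd1, which returns thioredoxin to its reduced form with NADPH (ENSMUSG00000020250, chromosome 10, 82669785 to 82733546), had 65.9, 59.3 and 60.8 CPM and 65.3, 82.1, 57.9 and 82.7 CPM, with replicates 1 and 3 of day 12 inside or below the range of steady state (log2 fold change 0.22, SE 0.14, adjusted p = 0.319). Gsr, which does the same for glutathione (ENSMUSG00000031584, chromosome 8, 34142551 to 34188191), varied within each group, from 125, 218 and 127 CPM to 142, 195, 119 and 208 CPM, and was not called (log2 fold change 0.09, SE 0.25, adjusted p = 0.844). Its sign turned on dropping steady-state replicate 1 (log2 fold change -0.030) or 3 (-0.048), or day 12 replicate 4 (-0.037).

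Of the 5 genes grouped under NADPH supply, 2 rose (Me1 and Tkt), or 40% beside 10.1% of all genes tested. Tkt and Taldo1, counted in this group, do not make NADPH themselves. Me1, the cytosolic malic enzyme (ENSMUSG00000032418, chromosome 9, 86463424 to 86578006), went from 6.58, 6.89 and 3.61 CPM to 25.0, 26.2, 27.5 and 48.9 CPM. Day 12 replicate 4 held the most, and the lowest day 12 value was still above the highest of steady state (5.58-fold, log2 fold change 2.48, SE 0.32, adjusted p = 0.00103). Of its transcript sequence, 12.3% of the stretches as long as a read (100 bases) also occur in other transcripts of GENCODE M21, mainly Gm7049. Tkt, the transketolase of the pentose phosphate pathway (ENSMUSG00000021957, chromosome 14, 30270316 to 30296677), had 203, 199 and 181 CPM and 244, 263, 256 and 375 CPM and was called (log2 fold change 0.55, SE 0.16, adjusted p = 0.0376). Tkt no longer passed when any steady-state library was dropped, replicate 1 (adjusted p = 0.0988), 2 (0.114) or 3 (0.149). G6pdx and Pgd, the dehydrogenases of that pathway that make NADPH, and Taldo1 were not called. G6pdx went from a mean of 182 ± 6.53 to 215 ± 22.4 CPM on average (log2 fold change 0.24, adjusted p = 0.169) and Taldo1 from a mean of 189 ± 26.4 to 209 ± 52.6 CPM on average (log2 fold change 0.14, adjusted p = 0.650), with a turned sign for Taldo1 without day 12 replicate 4 (-0.039). Pgd, at 190.2, 205 and 197 CPM and 234, 228, 253 and 351 CPM, did not overlap between groups (log2 fold change 0.43, adjusted p = 0.0844) and was called without day 12 replicate 4 (adjusted p = 0.0237).

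**Figure D3:**
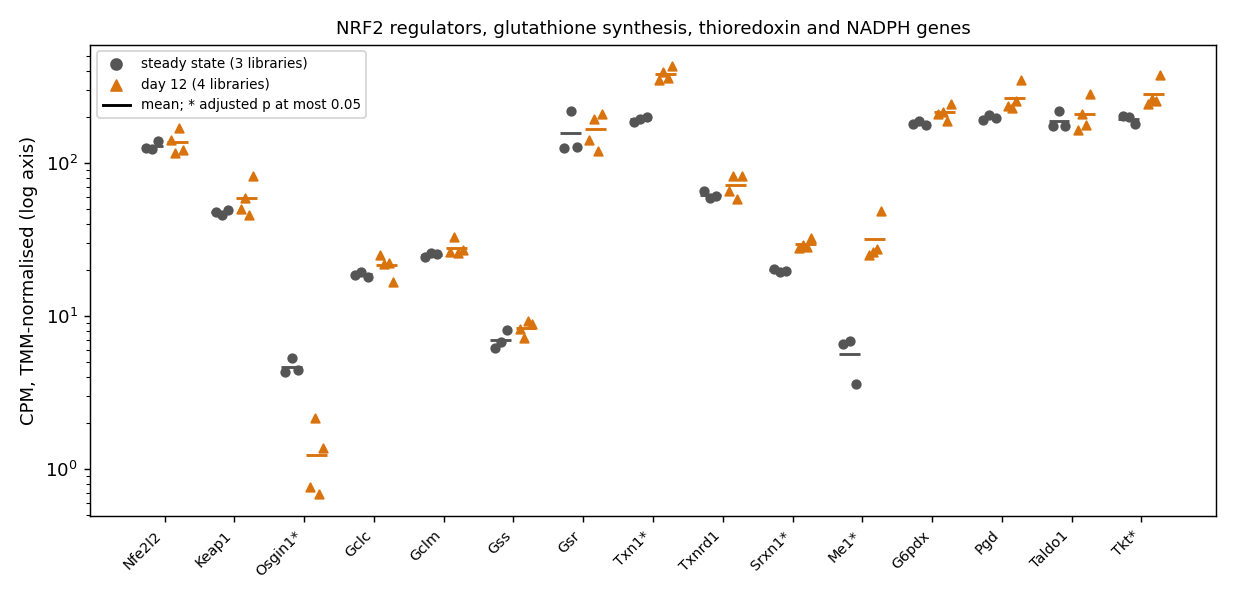
CPM in each library (log axis) for the NRF2 regulators and the genes of glutathione synthesis, thioredoxin and NADPH supply, circles for the 3 steady-state and triangles for the 4 day 12 libraries, with the group mean as a bar and an asterisk for called genes. Txn1, Srxn1 and Me1 lie wholly above and Osgin1 wholly below steady state at day 12, while the symbols of Nfe2l2, Gsr and Taldo1 overlap.

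The 6 peroxiredoxins, which reduce peroxides with electrons from thioredoxin or, for Prdx6, from glutathione, split by member. Prdx2, Prdx3 and Prdx5 rose, Prdx1 and Prdx6 fell, and Prdx4 was not called. Prdx6 (ENSMUSG00000026701, chromosome 1, 161067682 to 161078789) went from 153, 191 and 149 CPM to 65.7, 109, 54.1 and 77.7 CPM, 2.15-fold lower and without overlap (log2 fold change -1.10, SE 0.22, adjusted p = 0.00699). Prdx1, the abundant cytosolic member (ENSMUSG00000028691, chromosome 4, 116542741 to 116558019), had 179, 217 and 169 CPM and 109.7, 154, 118 and 112 CPM. Here too day 12 replicate 2 was nearest to steady state, and the groups did not overlap (log2 fold change -0.61, SE 0.15, adjusted p = 0.0182). Prdx1 failed the threshold on dropping steady-state replicate 1 (adjusted p = 0.0598) or 2 (0.0898) and on dropping day 12 replicate 1 (0.0523). Prdx4, the member of the endoplasmic reticulum, fell into a low pair and a high pair at day 12, with 66.3, 64.2 and 54.6 CPM and 33.1, 64.3, 33.9 and 57.5 CPM (log2 fold change -0.39, adjusted p = 0.294).

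Among the rising peroxiredoxins, Prdx2, a second cytosolic member (ENSMUSG00000005161, chromosome 8, 85696216 to 85701463), had 82.0, 88.9 and 77.0 CPM and 113, 115, 128 and 143 CPM (log2 fold change 0.59, SE 0.12, adjusted p = 0.00701). The groups did not overlap. Junb, a gene on the other strand that overlaps Prdx2, held 70416 reads against 26976 and rose as well (log2 fold change 1.21). The library kit keeps strand, per the labels, but whether the counting used it was not given in the sources used here, and the part of Junb reads in the Prdx2 values was not tested. Prdx3, the mitochondrial member (ENSMUSG00000024997, chromosome 19, 60852489 to 60862994), had 54.9, 57.6 and 48.5 CPM and 68.3, 77.4, 77.3 and 67.8 CPM, again without overlap (log2 fold change 0.44, SE 0.11, adjusted p = 0.0184). Prdx3 failed the threshold on dropping steady-state replicate 1 (adjusted p = 0.0633) or 3 (0.106). Prdx5, found in mitochondria, peroxisomes and cytosol (ENSMUSG00000024953, chromosome 19, 6884065 to 6887474), had 291, 295 and 304 CPM and 389, 391, 379.6 and 568 CPM, of which replicate 4 stood apart (log2 fold change 0.54, SE 0.16, adjusted p = 0.0370). Prdx5 failed the threshold on dropping steady-state replicate 1 (adjusted p = 0.122), 2 (0.126) or 3 (0.114).

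The superoxide dismutases moved in opposite directions. Sod2, the manganese enzyme of mitochondria (ENSMUSG00000006818, chromosome 17, 13225733 to 13258950), rose 1.72-fold from 70.7, 80.9 and 78.8 CPM to 132, 129, 115 and 152 CPM (log2 fold change 0.78, SE 0.12, adjusted p = 0.00215). Sod1, the copper and zinc enzyme of the cytosol (ENSMUSG00000022982, chromosome 16, 90017642 to 90023217), fell from 116, 114 and 100 CPM to 79.9, 73.9, 70.3 and 80.7 CPM (log2 fold change -0.53, SE 0.10, adjusted p = 0.00629). Neither gene had overlapping groups. Scaf4 overlaps Sod1 on the other strand and was not called (log2 fold change -0.03), and 12.8% of the read-length stretches of Sod2 occur in other transcripts. Within each library, the ratio of Sod2 to Sod1 CPM was 0.610, 0.707 and 0.788 in steady state and 1.66, 1.74, 1.63 and 1.89 at day 12. This ratio takes no account of gene length. Per kilobase of exon Sod1 stayed above Sod2, with 27.7 and 7.67 CPM in steady state and 19.2 and 13.2 CPM at day 12. Cat, the catalase of peroxisomes (ENSMUSG00000027187, chromosome 2, 103284194 to 103315505), fell from 155, 171 and 164 CPM to 115, 107, 109 and 114 CPM, with day 12 libraries within a narrow range (log2 fold change -0.55, SE 0.09, adjusted p = 0.00304).

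Of the 8 glutathione peroxidases, 4 were tested and 1 was called, or 25%, near the 20.3% of all genes tested. Gpx3, the secreted form (ENSMUSG00000018339, chromosome 11, 54793279 to 54801203), went from 16.9, 19.6 and 24.5 CPM to 3.76, 9.43, 3.87 and 12.2 CPM, a fall of 2.78-fold with a low and a high pair at day 12 (log2 fold change -1.48, SE 0.42, adjusted p = 0.0409). That call was the least stable of the 21. Gpx3 failed the threshold on dropping steady-state replicate 1 (adjusted p = 0.0872), 2 (0.0980) or 3 (0.126), or day 12 replicate 1 (0.0597), 2 (0.0513) or 3 (0.0519), and when low-count genes were kept (0.139). Gpx1 (ENSMUSG00000063856, chromosome 9, 108216102 to 108217542) had 897, 903 and 910.2 CPM and 936, 977, 973 and 1347 CPM. All day 12 values were higher, by little except in replicate 4, and the test was not passed (log2 fold change 0.23, SE 0.15, adjusted p = 0.311). Gpx4, which reduces lipid peroxides in membranes and so blocks ferroptosis, had 46.9, 45.2 and 47.8 CPM and 43.9, 47.5, 45.5 and 69.3 CPM (log2 fold change 0.14, adjusted p = 0.576), and without day 12 replicate 4 its sign turned (-0.028). Of its read-length stretches 25.2% occur in other transcripts, mainly Gpx4-ps2. Gpx7 ranged from 2.53 to 7.43 CPM over all libraries and was not called (adjusted p = 0.531). Gpx2, the intestinal form, and Gpx8 had 1 read each, and Gpx5 and Gpx6 had none.

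**Figure D4:**
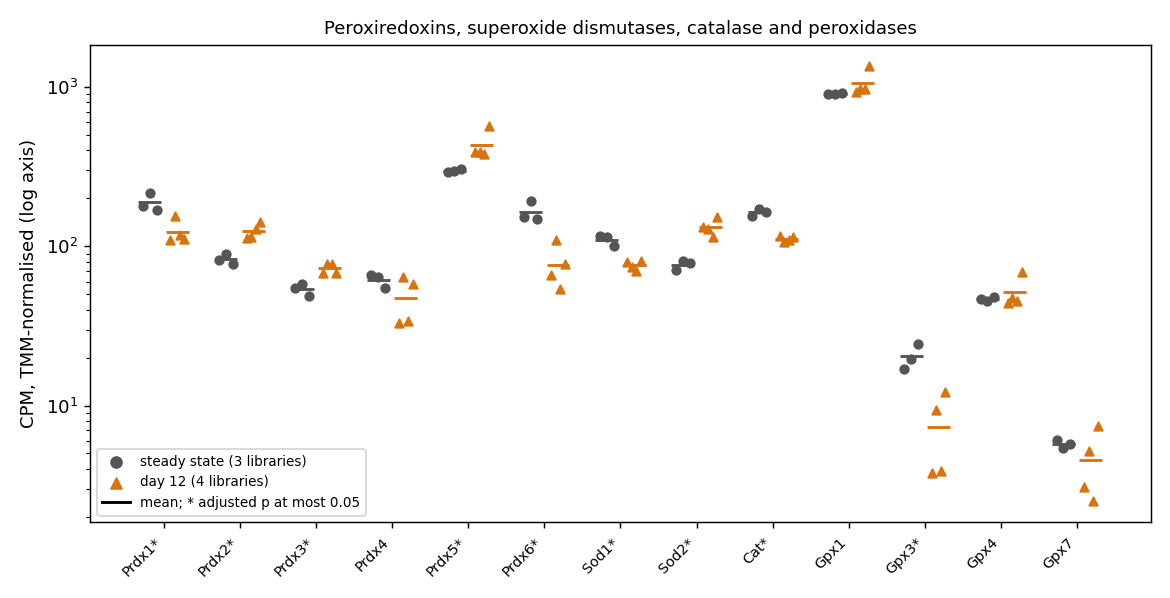
CPM in each library (log axis) for peroxiredoxins, superoxide dismutases, catalase and tested glutathione peroxidases, circles for steady state and triangles for day 12, with group means as bars and asterisks for called genes. Sod2, Prdx2, Prdx3 and Prdx5 lie above and Sod1, Cat, Prdx1 and Prdx6 below their steady-state values, and the highest triangle of Prdx5, Gpx1 and Gpx4 is replicate 4.

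Soluble glutathione S-transferases also went both ways, with 3 of 14 tested genes higher and 3 lower. That is 21.4% each way, beside 10.1% higher and 10.2% lower among all genes tested. Of the lower ones, Gstt1 and Gsta4 entered the test through steady state alone. Gsto1, of the omega class, which reduces disulfides and dehydroascorbate (ENSMUSG00000025068, chromosome 19, 47843409 to 47853229), rose from 61.0, 58.8 and 60.8 CPM to 113, 114, 133 and 117 CPM. The 2 ranges were far apart, and the rise was 1.98-fold (log2 fold change 0.99, SE 0.10, adjusted p = 0.000296). Its neighbour Gsto2 had at most 0.890 CPM and was not called (adjusted p = 0.580). Cfap43 overlaps Gsto2 on the other strand and held 206 reads, against 156 for Gsto2. Gstm1, the leading mu class gene (ENSMUSG00000058135, chromosome 3, 107919571 to 107925289), fell 2.23-fold from 39.1, 42.3 and 44.4 CPM to 19.4, 19.4, 20.2 and 16.5 CPM. It had the lowest p of all 60 genes, the 126th of the 15981 tested (log2 fold change -1.15, SE 0.11, adjusted p = 0.000212). The other mu genes lie beside it on chromosome 3 between 107803137 and 107952210. Gstm4 had 5.04, 5.27 and 5.46 CPM and 3.34, 4.27, 4.26 and 4.53 CPM (log2 fold change -0.36, adjusted p = 0.179), without overlap but not called. Gstm5, at 2.29 ± 0.492 and 2.37 ± 0.615 CPM, was level in the fit (log2 fold change 0.05, adjusted p = 0.918), with a turned sign without steady-state replicate 3 (-0.060) or day 12 replicate 2 (-0.11). Gstm7 had 16, 17 and 13 reads in steady state and 0, 6, 20 and 0 at day 12, and its log2 fold change of -1.39 (adjusted p = 0.339) became -3.02 without day 12 replicate 3 (adjusted p = 0.0424). Gstm7 passed the filter on low counts through its steady-state libraries, the group where it was high, so its place in either test depended on that group. Gstm2, Gstm3 and Gstm6 were too low to test.

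Gstt1, of the theta class (ENSMUSG00000001663, chromosome 10, 75619647 to 75634418), had the largest fold change of the set. It passed the filter on low counts through its steady-state libraries alone. It was low already in steady state, with 24, 30 and 30 reads, and fell to 3, 2, 2 and 2 reads at day 12. In CPM these were 0.712, 0.840 and 0.958 and 0.0795, 0.0503, 0.0526 and 0.0580, and the day 12 values lay at or below the floor, so that the fitted fold (13.2-fold lower, log2 fold change -3.72, SE 0.40, adjusted p = 0.000375) rests on 9 day 12 reads. Pooled over libraries, the ratio of steady-state to day 12 reads per library size was 13.9 (exact 95% interval 6.98 to 31.4, for counting error only). Its neighbours on chromosome 10 were not called: Gstt2 went from a mean of 4.82 ± 0.564 to 3.43 ± 0.157 CPM on average (log2 fold change -0.49, adjusted p = 0.0714) and Gstt3 from a mean of 7.25 ± 1.09 to 8.04 ± 0.850 CPM on average (log2 fold change 0.15, adjusted p = 0.563). Gsta4, which handles aldehydes from lipid peroxidation (ENSMUSG00000032348, chromosome 9, 78090056 to 78116631), had 0.652, 0.448 and 0.447 CPM and 0.0530, 0.126, 0.210 and 0.116 CPM, or 22, 16 and 14 and 2, 5, 8 and 4 reads (log2 fold change -2.0, SE 0.47, adjusted p = 0.0166). Gsta4 failed the threshold on dropping steady-state replicate 1 (adjusted p = 0.0924), 2 (0.0521) or 3 (0.0531). Gsta4 too passed the filter through steady state alone. The other alpha genes had 32 reads (Gsta3) or none (Gsta1, Gsta2, Gsta5).

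Both expressed pi class genes rose by a like amount. Gstp1 (ENSMUSG00000060803, chromosome 19, 4085407 to 4087985) had 30.0, 31.9 and 29.2 CPM and 41.8, 38.3, 41.3 and 48.9 CPM (log2 fold change 0.49, SE 0.11, adjusted p = 0.0143). Gstp2, its neighbour (ENSMUSG00000038155, chromosome 19, 4090285 to 4096023), had 7.89, 9.13 and 8.08 CPM and 12.3, 10.8, 12.0 and 12.4 CPM (log2 fold change 0.50, SE 0.13, adjusted p = 0.0224). Neither gene overlapped between groups. Of the read-length stretches of Gstp1 and Gstp2, 25.1% and 46.9% occur in other transcripts, mainly in each other, so that their shares of reads are uncertain. Gstp1 failed the threshold on dropping steady-state replicate 1 (adjusted p = 0.0644) or 3 (0.0803). Gstp2 failed the threshold on dropping steady-state replicate 1 (0.0885), 2 (0.0537) or 3 (0.103), or day 12 replicate 1 (0.0555), and when low-count genes were kept (adjusted p = 0.0574). Gstp3 had no read. Gstk1, of mitochondria and peroxisomes, and Gstz1, which acts in tyrosine breakdown, were not called (adjusted p = 0.685 and 0.228). Pomt2 overlaps Gstz1 on the other strand and held 3984 reads, against 2570 for Gstz1.

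Microsomal transferases sit in membranes and belong to another protein family. Mgst1 (ENSMUSG00000008540, chromosome 6, 138117314 to 138133753), the most abundant transferase of the set in steady state per kilobase (73.9 CPM per kilobase, and 51.2 at day 12, when Gsto1 had 58.9), fell from 142, 156 and 148 CPM to 90.4, 129, 98.3 and 94.3 CPM. Day 12 replicate 2 was again the nearest to steady state (log2 fold change -0.53, SE 0.13, adjusted p = 0.0227). Mgst1 failed the threshold on dropping steady-state replicate 1 (adjusted p = 0.0744), 2 (0.0924) or 3 (0.0792), or day 12 replicate 1 (0.0634) or 3 (0.0509). Mgst3 had 6.58, 6.30 and 6.58 CPM and 2.15, 4.15, 3.21 and 5.28 CPM, lower in every day 12 library but not called (log2 fold change -0.81, adjusted p = 0.0654). It was called without day 12 replicate 4 (adjusted p = 0.0146). Mgst2 stayed at or below 1.03 CPM and was not called (adjusted p = 0.370).

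**Figure D5:**
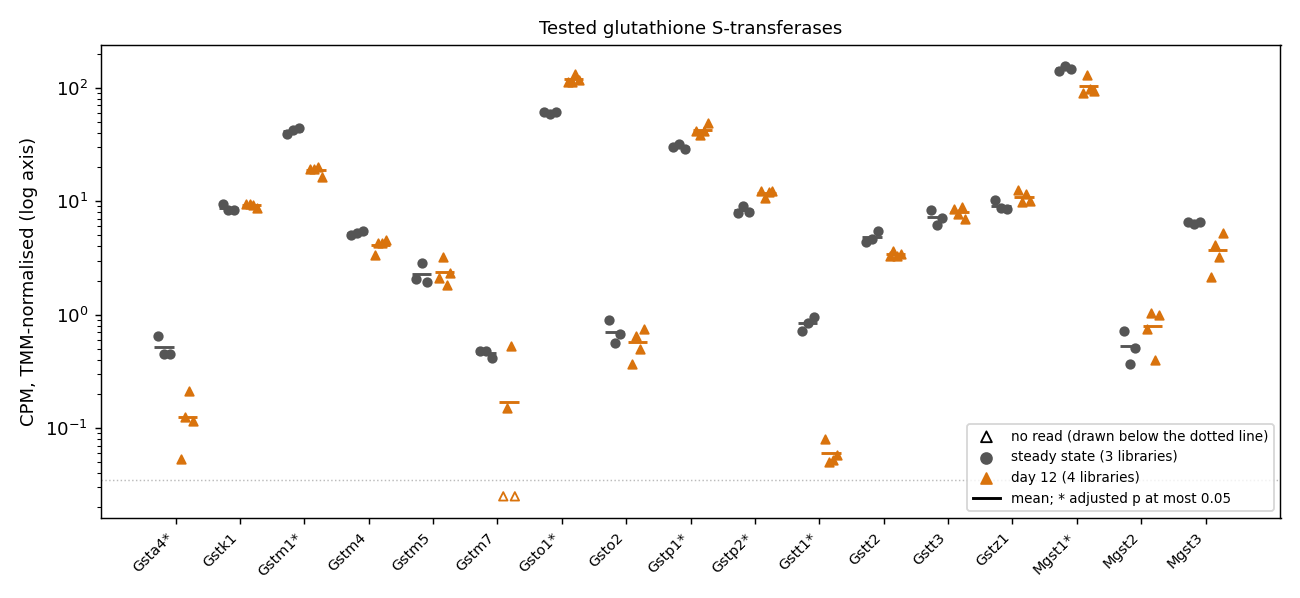
CPM in each library (log axis) for the 17 tested glutathione S-transferases, circles for steady state and triangles for day 12, with group means as bars, asterisks for called genes and open triangles for libraries without a read. Gsto1, Gstp1 and Gstp2 lie above and Gsta4, Gstm1, Gstt1 and Mgst1 below their steady-state values.

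A wider list of 115 genes of the same pathways (partners of NRF2, sulfur amino acid and glutathione handling, thioredoxin and glutaredoxin genes, further NADPH enzymes, further NRF2 targets and selenoproteins) was read beside the set. Of 103 tested, 12 rose and 15 fell, or 11.7% and 14.6% beside the 10.1% and 10.2% of all genes, with a median log2 fold change of 0.01. Rises with the lowest p were those of Ggct, which releases 5-oxoproline in glutathione breakdown (means 10.8 ± 0.402 and 29.5 ± 1.52 CPM, log2 fold change 1.44, adjusted p = 7.35e-05), Aldh1l1, a folate enzyme that yields NADPH (means 11.5 ± 1.65 and 34.7 ± 5.03 CPM, log2 fold change 1.59, adjusted p = 0.000232), Aifm2, the ferroptosis suppressor FSP1 (log2 fold change 1.25, adjusted p = 0.000347), and Ptgr1, a reductase of lipid aldehydes (log2 fold change 1.24, adjusted p = 0.000566). Falls with the lowest p were those of Sesn1, a stress-induced sestrin (means 194 ± 15.2 and 77.3 ± 11.2 CPM, log2 fold change -1.33, adjusted p = 0.000242), Bach2, a repressor related to Bach1 (log2 fold change -1.18, adjusted p = 0.000919), Txnip, the inhibitor of thioredoxin (means 1328 ± 25.0 and 798 ± 38.2 CPM, log2 fold change -0.74, adjusted p = 0.00132), and Ugdh (log2 fold change -0.53, adjusted p = 0.00437). Without steady-state replicates 1, 2 and 3 the list held 6, 5 and 6 rises and 8, 8 and 8 falls, and without day 12 replicate 4 it held 21 rises. Counts over all genes varied as well with 1 library left out, from 857 to 2188 rises and 904 to 2411 falls.

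Among partners and regulators of NRF2 on that list, 1 of 12 tested genes was called (Bach2, lower), or 8.33% beside the 20.3% of all genes. Among its further targets, 7 of 20 were called, 3 higher (Aifm2, Ptgr1 and Cbr1) and 4 lower (Ugdh, Ephx1, Trp53inp1 and Cd36), which is 35% beside the 20.3% of all genes. Of these Cbr1, Ephx1, Trp53inp1 and Cd36 were named after their values were seen. Cd36, a scavenger receptor for lipids, had the largest fold change, with 749, 808 and 811 CPM in steady state and 34.4, 146, 14.6 and 8.24 CPM at day 12 (log2 fold change -3.96, adjusted p = 0.0284). All day 12 values lay below steady state and differed widely among themselves. Ephx1, an epoxide hydrolase (log2 fold change -1.13, adjusted p = 0.0144), and Trp53inp1 (log2 fold change -0.80, adjusted p = 0.0117) were lower and the carbonyl reductase gene Cbr1 (log2 fold change 0.44, adjusted p = 0.0315) higher in every day 12 library. Cd36 failed the threshold on dropping steady-state replicate 1 (adjusted p = 0.0644), 2 (0.0709) or 3 (0.0744), or day 12 replicate 1 (0.0694), and when low-count genes were kept (0.0980). Ephx1 failed it on dropping steady-state replicate 1 (0.0526) or 3 (0.0599), and Trp53inp1 on dropping replicate 2 (0.0545) or 3 (0.0539). Cbr1 failed it on dropping steady-state replicate 1 (0.0743), 2 (0.147) or 3 (0.0941), or day 12 replicate 3 (0.0758), and when low-count genes were kept (0.0644). Hmox1, Bach1, Mafg, Sqstm1 and Slc3a2 were not called. Hmox1, the heme oxygenase gene that NRF2 induces, had means of 115 ± 10.8 and 138 ± 34.5 CPM (log2 fold change 0.26, adjusted p = 0.345). Bach1, which competes with NRF2 for its elements, was at 228 ± 11.3 and 227 ± 41.7 CPM (log2 fold change -0.0048, adjusted p = 0.986), and its log2 fold change lay on either side of 0 over the alternatives. Mafg, the small Maf partner, was at 132 ± 4.10 and 129 ± 22.4 CPM (log2 fold change -0.03, adjusted p = 0.894, of either sign over the alternatives). Sqstm1, the autophagy receptor that binds KEAP1, was at 150.1 ± 14.3 and 154 ± 25.4 CPM (log2 fold change 0.03, adjusted p = 0.891, of either sign as well). Slc3a2, the heavy chain that pairs with the Slc7a11 product, was at 60.0 ± 6.53 and 49.4 ± 14.1 CPM (log2 fold change -0.28, adjusted p = 0.363).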

How the data were processed

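RNA of 7 libraries (3 steady state, 4 day 12, groups and replicate numbers from the titles) was read from 1 table of raw read counts per gene that the authors deposited. Tools listed without a role per the submitters' processing notes were DESeq2 1.40.2, featureCounts of Subread 2.0.6, SAMtools 1.10, STAR 2.7.11a and FastQC, with the build GRCm39. Not given in the sources used here were the annotation release, the strand setting and the treatment of reads with several positions, which leaves overlapping and near-identical genes uncertain. The labels' protocols speak of 3 biological replicates per condition but do not tie libraries to animals, so a p-value reflects only the spread among libraries, which may be technical.

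All 57010 genes entered edgeR 4.0.16 (quasi-likelihood, robust, R 4.3.3) with TMM factors and filterByExpr (minimum count 10, minimum total 15), which left 15981, with Benjamini-Hochberg adjustment over all of them at 0.05. A fold is 2 to the power of the fitted log2 fold change, and standard errors came from the fold change and its F statistic. CPM per kilobase used the union of exons in GENCODE M21 (GRCm38), a length that overstates genes with rare long exons. Alternatives used DESeq2 1.42.0, limma 3.58.1 (voom), other scalings and filters, a test against 1.5-fold, the replicate number as a block, and 1 library left out in turn. The procedure was tested on simulated data.

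The members and lists were chosen with earlier results of these data known. Values of every library are given for called members, for 13 listed members and for the 3 most abundant, and those of Gpx4, Gstm4, Gstm7, Mgst3, Pgd and Prdx4 were added after they were seen. Of the wider list, 6 listed genes and the 4 lowest p in each direction are named, with Cbr1, Cd36, Ephx1 and Trp53inp1 added after their values were seen. Of that list 1 symbol did not match and is not used here.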

Additional observations from a re-analysis of the deposited data

Results flagged for a closer look

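In 6 of the 46 tested genes, 1 of the 4 day 12 libraries lay apart from the other 3 by more than Dixon's critical value for the gap over the range, which chance alone exceeds in about 1 of 20 groups. Day 12 replicate 4 was the high library in 5 of them. It held 1347 CPM of Gpx1 (others 936 to 977), 69.3 CPM of Gpx4 (others 43.9 to 47.5), 48.9 CPM of Me1 (others 25.0 to 27.5), 375 CPM of Tkt (others 244 to 263) and 568 CPM of Prdx5 (others 379.6 to 391). Day 12 replicate 2 was the high library for Gclm, with 33.0 CPM beside 26.0 to 27.0 CPM in the others. Without replicate 4 the calls of Me1 (adjusted p = 0.000876), Tkt (0.00640) and Prdx5 (0.00374) stood, with log2 fold changes of 2.20, 0.39 and 0.38.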

How the results depend on the processing

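Of the 21 calls, 5 (Txn1, Me1, Gsto1, Gstm1 and Osgin1) stood under all 16 alternatives. Gstt1 was lost only where a filter of 1 CPM kept it out of the test, and Prdx2, Prdx6, Sod1, Sod2, Cat and Srxn1 only in the test against 1.5-fold. No called member changed sign in any alternative that tested it. DESeq2 also called Gstt2, Mgst3, Pgd and Slc7a11. The members called numbered 6 to 13 higher and 6 to 11 lower over the fits with 1 library left out, and 3 higher and 3 lower against 1.5-fold. The wider list gave 5 to 21 higher and 8 to 18 lower with 1 library left out, 4 and 4 against 1.5-fold, and 19 higher with DESeq2. All genes gave 857 to 2188 higher and 904 to 2411 lower with 1 library left out, and 609 and 516 against 1.5-fold; fewer samples or a stricter null enter these fits. The element core lengthened by an A at its 3′ end was in 2 tested genes, where the core was in 12. Of the 10 most abundant genes per kilobase, 8 were also the most abundant by CPM.

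With the replicate number as a block, 12 members rose and 10 fell, beside 1989 and 2289 of all genes, and 19 genes of the wider list rose and 19 fell, with the Gsta4 call lost (adjusted p = 0.0632) and Mgst3 (0.0212), Pgd (0.0395) and Slc3a2 (0.00774) gained. Of the wider list, the calls of Cd36 (0.0654) and Ephx1 (0.130) were lost under it. The labels do not pair the libraries, and deviations of same-numbered libraries correlated at -0.14, 0.008 and 0.20, so the numbers were not taken as pairs. Replicate number 4 occurs only at day 12, so under the block that library did not enter the group difference. Mgst3 and Pgd were gained without day 12 replicate 4 as well, while Gsta4 was kept there. Under the block the uncalled log2 fold changes of Taldo1, Gsr, Gpx4, Sqstm1 and Bach1 turned sign, to -0.039, -0.020, -0.032, -0.081 and 0.069.

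Other turned signs were all of uncalled genes near 0, and the cause was not tested. With 1 library left out the log2 fold changes ran from -0.11 to 0.24 for Gstm5, -0.036 to 0.18 for Nfe2l2, -0.039 to 0.26 for Taldo1, -0.048 to 0.40 for Gsr, -0.028 to 0.23 for Gpx4, -0.081 to 0.13 for Sqstm1, -0.12 to 0.083 for Bach1 and -0.16 to 0.039 for Mafg. Bach1 also gave 0.0077 with DESeq2, 0.0077 with RLE size factors, 0.036 with upper-quartile factors, 0.017 with total counts only and 0.031 with a filter of 1 CPM, and Mafg gave 0.010 with upper-quartile factors and 0.0056 with that filter. Depth limits Gstt1, Gsta4, Gstm7, Slc7a11 and Nqo1, which had few reads. Gstt1, Gsta4 and Gstm7 passed the filter on low counts through steady state alone, and Slc7a11 through day 12 alone. Their place in the test thus depended on the group where they were high.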

Other observations

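Among the 11 members that rose, day 12 replicate 4 was the highest day 12 library, and so farthest from steady state, in 9, beside 46.3% of the 1616 genes that rose in all. Replicate 1 was the lowest, and so nearest to steady state, in 6 of these 11, beside 18.9% of all risen genes, and replicate 2 in 2 of them, beside 38.5%. Among the 10 members that fell, replicate 2 was nearest to steady state in 4, near the 43.9% of the 1626 genes that fell in all, and replicate 1 was farthest in 4, beside 28.2%.

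In 3 further ratios within a library, chosen after the values were seen, the groups did not overlap. Gsto1 to Gstm1 CPM was 1.44 ± 0.104 (SD, n = 3) in steady state and 6.35 ± 0.623 (SD, n = 4) at day 12. Prdx5 to Prdx1 was 1.59 ± 0.218 and 3.59 ± 1.07, and Prdx2 to Prdx1 was 0.440 ± 0.0268 and 1.035 ± 0.220. These ratios restate changes of single genes, take no account of gene length and were not tested.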
